A study of Mus musculus
Mus spretus with 18 samples.

Results

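The 4 tropomyosin genes (Tpm1, Tpm2, Tpm3 and Tpm4) and 3 genes of the MEF2 transcription factors (Mef2a, Mef2c and Mef2d) were followed through 18 RNA-seq libraries of an F1 hybrid mouse. They are 7 of the 38924 genes in the deposited expression table. They were taken by name, and every skipped exon (SE) event under those names was kept, which gave 75 events on 50 alternative exons out of 121350 autosomal events. Of the exons, 10 lie in Tpm1, 1 in Tpm2, 9 in Tpm3, 4 in Tpm4, 11 in Mef2a, 5 in Mef2c and 10 in Mef2d.

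Each animal or cell carried a maternal genome of C57BL/6J, a common inbred mouse strain, and a paternal genome of SPRET/EiJ, which derives from the species Mus spretus. Cerebral cortex, heart, kidney, lung, spleen and liver came from female mice aged 8 weeks, taken from 2 animals. The embryonic stem cell (ESC) replicates were separate clones of the same cross. Fibroblasts of a line from the same hybrid received 0.1 μM pladienolide B, an inhibitor of the SF3B complex of the spliceosome, or its solvent DMSO, for 4 h. Each of the 9 groups held 2 libraries, and the fibroblast libraries were cultures of 1 line. The liver labels carry other strain names, C57BL/7J and C57BL/8J, and were used as the C57BL/6J cross that the study describes.

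Tropomyosins are coiled-coil dimers that lie along the actin filament, where in striated muscle they carry the troponin complex and set the access of myosin to actin. Each gene makes several proteins through alternative promoters, mutually exclusive internal exons and alternative last exons, so that muscle, brain and non-muscle cells hold different forms from the same gene. MEF2 proteins are MADS-box transcription factors that bind muscle and neuronal genes, and their own transcripts hold tissue-dependent exons, among them a very short exon known as β and a mutually exclusive pair known as α1 and α2.

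Junction reads on autosomal SE events ranged from 45055286 to 128494506 in the tissue libraries (median 78022070) and from 121091735 to 144154268 in the fibroblast libraries. Markers of neurons, cardiomyocytes, kidney, lung, lymphocytes, hepatocytes, pluripotent cells and fibroblasts each had their highest sum in the tissue or cells so labelled. Of the fibroblast markers, Thy1 went the other way, with 971 and 1046 TPM in cortex and 5.51 and 5.73 TPM in DMSO fibroblasts. The 5 cardiomyocyte markers summed to 30610 to 30887 TPM in heart but also to 593 to 804 TPM in lung. The lung sum was mostly Myl7 (598 and 455 TPM) and Myh6 (167 and 127 TPM), with Myl2 at or under 0.138 TPM. The 4 smooth muscle markers summed to 1050 to 1075 TPM in lung and 744 to 1054 TPM in spleen. The ESC clones differed from each other in several members, as given below. In these bulk samples, fewer cells of a type and less RNA per cell cannot be told apart.

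Expression was given as TPM, a share of all transcripts that is corrected for length, so that genes can be compared. Tpm1, which codes for α-tropomyosin of heart and many other forms, had by far the highest level of the family in heart, and a lower level than Tpm3 and Tpm4 in liver. Tpm1 measured 3580 and 3547 TPM in the heart libraries and 209 and 199 TPM in lung. The next groups were spleen (95.1 and 81.2 TPM), cortex (82.9 and 86.8 TPM) and ESC (94.1 and 35.7 TPM), which overlapped one another, followed by kidney (47.8 and 51.7 TPM) and liver (13.2 and 12.4 TPM). Heart and lung stood apart from every other tissue and from each other, whereas the ESC clones spanned the range from cortex and spleen to kidney. On the log2(TPM + 0.1) scale, Tpm1 was higher in heart than in lung by 4.13 (SE 0.33, limma adjusted p = 2.73e-06) and than in liver by 8.11 (SE 0.33, limma adjusted p = 1.34e-08). Tpm1 made up 96.1% and 95.5% of the summed tropomyosin TPM in heart, against 45.3% and 46.1% in cortex and 11.7% in both spleen libraries.

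Tpm2, the β-tropomyosin gene, and Tpm4, a non-muscle tropomyosin of the cytoskeleton, were highest in lung among the organs. Tpm2 measured 110 and 102 TPM in lung, 85.7 and 59.4 TPM in spleen, 40.7 and 43.1 TPM in heart, 19.6 and 24.8 TPM in kidney, 9.87 and 9.48 TPM in cortex and 2.22 and 1.17 TPM in liver. Its ESC clones were 19.3 and 2.79 TPM, a range that held the whole of cortex. The order of the remaining tissues for Tpm2 was free of overlap. Tpm4 measured 513 and 532 TPM in lung and 450 and 401 TPM in spleen, the gene with the most tropomyosin RNA in both. It fell through ESC (251 and 155 TPM), kidney (116 and 125 TPM) and heart (88.1 and 103 TPM) to cortex (36.6 and 35.8 TPM) and liver (20.8 and 22.0 TPM), and no neighbours in this order overlapped. The summed smooth muscle markers were also highest in lung and spleen among the tissues, and their part in these levels was not tested.

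Tpm3, which codes for slow skeletal and many non-muscle tropomyosins, was lowest in heart and liver. Spleen (182 and 150 TPM), ESC (150 and 161 TPM) and lung (146 and 152 TPM) overlapped at the top. Cortex held 53.7 and 56.2 TPM and kidney 41.0 and 45.7 TPM. Liver (19.98 and 20.97 TPM) and heart (18.1 and 20.7 TPM) overlapped at the bottom. Tpm3 was lower in heart than in cortex by −1.50 (SE 0.11, log2 scale, limma adjusted p = 6.47e-07), and by −0.17 (limma adjusted p = 0.187) once each library was centred on the median of its log2 levels. A near-identical gene of the family, Tpm3-rs7, was listed at 5.43 to 76.3 TPM in the same libraries, so the Tpm3 level is uncertain to the extent that reads were shared between the copies.

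**Figure D1:**
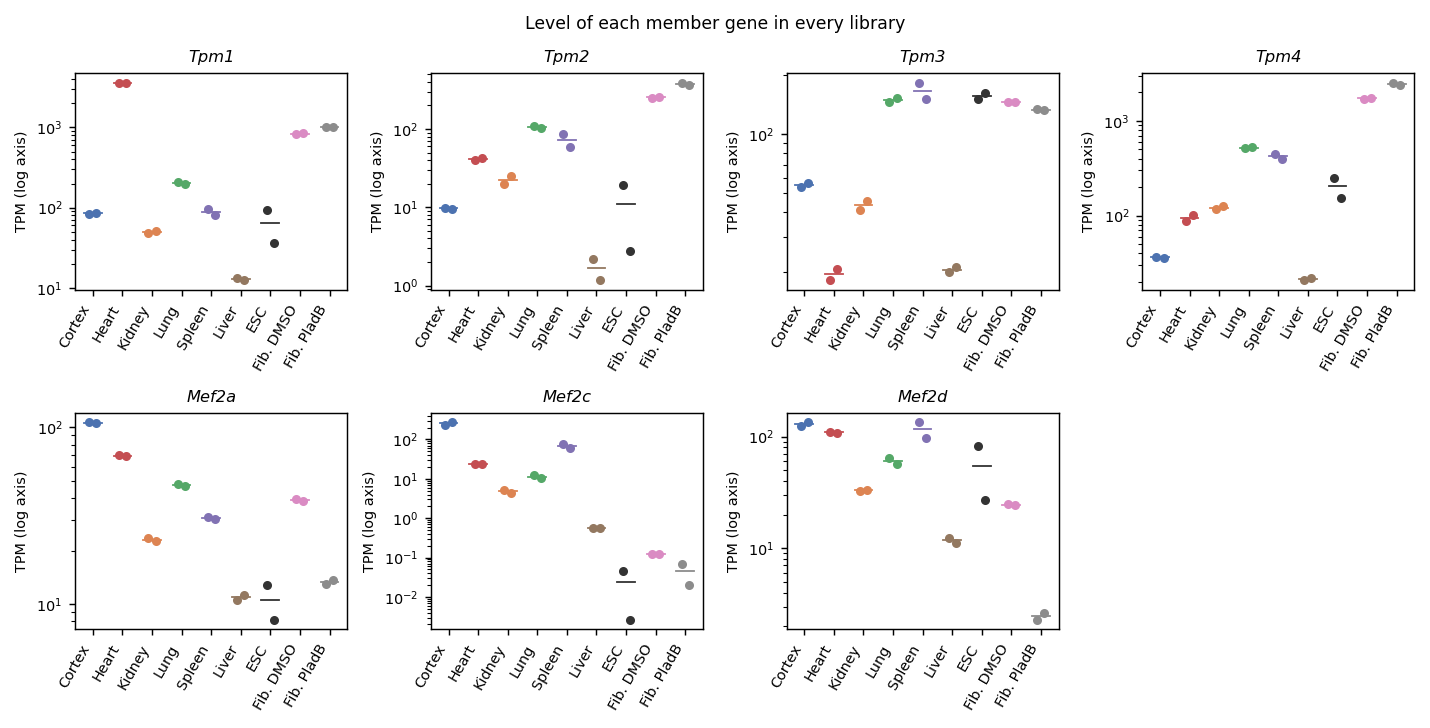
Expression of each tropomyosin and Mef2 gene in TPM on a log axis, with 1 point per library and a bar at the mean of the 2 libraries of each group. Tpm1 reaches 3580 and 3547 TPM in heart, Mef2c 240 and 272 TPM in cortex, and Mef2c stays at or under 0.123 TPM in ESC and fibroblasts.

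The 3 Mef2 genes were highest in cortex by their means. Mef2c, the member best known from neurons, B cells and the developing heart, measured 240 and 272 TPM in cortex, 79.0 and 61.6 TPM in spleen and 23.9 and 23.6 TPM in heart. It was lower in lung (12.3 and 10.3 TPM), kidney (5.13 and 4.45 TPM) and liver (0.571 and 0.562 TPM), and was 0.0444 and 0.00267 TPM in the ESC clones. None of these groups overlapped for Mef2c. Mef2a followed the order cortex (107 and 106 TPM), heart (69.5 and 68.6 TPM), lung (47.8 and 46.5 TPM), spleen (31.0 and 30.4 TPM) and kidney (23.5 and 22.8 TPM). Liver (10.5 and 11.3 TPM) and ESC (12.8 and 8.15 TPM) overlapped at its lower end.

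Mef2d had similar levels in the first 3 tissues of its order. Its spleen libraries (134 and 98.2 TPM) spanned heart (111 and 108 TPM) and overlapped cortex (124 and 134 TPM), while cortex lay above heart without overlap. Lung (63.9 and 57.2 TPM) and kidney (32.9 and 33.2 TPM) fell within the span of the ESC clones (82.1 and 27.0 TPM). Liver was lowest at 12.4 and 11.2 TPM. Mef2c in cortex exceeded heart by 3.42 (SE 0.19, log2 scale, limma adjusted p = 8.76e-08) and spleen by 1.87 (SE 0.19, limma adjusted p = 7.83e-06).

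Each of the 7 genes passed the test of an overall tissue effect, as did 99.5% of the 21925 genes tested. Of the 42 comparisons of a member in heart with another tissue, 32 passed (adjusted p under 0.05 and a log2 difference of at least 1), 22 of them higher in heart. Over all genes the share that passed was 58.7% against cortex, 64.9% against ESC, 37.9% against kidney, 50.6% against liver, 49.2% against lung and 55.1% against spleen, and 14.1%, 19.9%, 11.1%, 38.7%, 10.2% and 14.9% of genes were called higher in heart. In cortex, 32 of 42 passed, 19 of them higher. The share over all genes was 60.9% against ESC, 58.7% against heart, 52.6% against kidney, 71.2% against liver, 54.6% against lung and 58.6% against spleen, with 33.4%, 44.6%, 33.6%, 60.7%, 30.2% and 33.7% called higher in cortex. The median difference over all genes was −0.81 for heart against cortex and 0.67 for heart against liver on the log2 scale. Centring each library on its median level added 1.33 to every difference of heart from cortex and −0.96 to every difference of heart from liver. After centring, the heart calls became 26 higher and 7 lower, and the cortex calls 11 higher and 16 lower. Centring turned the sign of 5 heart differences, among them Mef2a against cortex (−0.63 to 0.70) and Mef2d against cortex (−0.24 to 1.09), so that the order of heart and cortex for these genes depends on the scaling. The order of heart and lung for Tpm1 (4.13 and 5.16) and of cortex and heart for Mef2c (3.42 and 2.09) did not.

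The genes with the most similar mean log2 levels over the 7 tissues were found among 16487 other genes, as a description. For Tpm1 they were Cox6a2 (r = 0.989), the heart and muscle form of a cytochrome c oxidase subunit, and Sgca (r = 0.988), a sarcoglycan of the muscle membrane. For Tpm4 they were Tagln2 (r = 0.990) and Msn (r = 0.986), the gene of moesin, both of the actin cytoskeleton. For Tpm3 they were Tpm3-rs7 (r = 0.999) and Hmgb1 (r = 0.992), for Tpm2 Mir3079 and Zbtb46 (r = 0.990 and 0.988), for Mef2a 1110018N20Rik and Lgi4 (r = 0.992 and 0.989), for Mef2c Inpp1 and Pitpnm1 (r = 0.988 and 0.977) and for Mef2d Wdr83 and Fopnl (r = 0.971 and 0.965). A single tissue far from the rest can set such a value over 7 points. Among the members Mef2a and Mef2c had r = 0.897 and Tpm2 and Tpm4 r = 0.827.

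Splicing was measured as percent spliced in (PSI), the share of transcripts that hold an exon on a scale of 0 to 1, computed from inclusion and skipping junction reads after division by the effective length of each form. A value is given where a library had 20 or more junction reads on the event. An event was called where the quasi-binomial test gave an adjusted p under 0.05 and the PSI differed by 0.1 or more. Between tissues, 10 of the 30 member events tested were called, on 10 of 27 exons, beside 8.06% of 47963 events in all. The called exons were 3 in Tpm1, 1 in Tpm3, 1 in Mef2a, 2 in Mef2c and 3 in Mef2d.

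Tpm1 holds 2 mutually exclusive exons of 126 bp behind its first exon, which code for alternative stretches near the start of the protein. The gene lies on the minus strand of chromosome 9 (mm10). The earlier exon in the transcript (chr9:67048124-67048249) is the form known from smooth muscle, here called 2a, and the later (chr9:67047786-67047911) is 2b. The PSI of exon 2b was 0.991 and 0.990 in heart, 0.788 and 0.845 in cortex, 0.605 and 0.594 in lung, 0.384 and 0.387 in kidney and 0.219 and 0.298 in spleen. Heart therefore lay above every other tissue, and spleen lay below cortex, lung and kidney. Liver (0.116 and 0.471, from 53 and 25 reads) and the ESC clones (0.676 and 0.958) were spread too widely to be placed. The tissue effect had a largest difference of 0.732 between heart and spleen (adjusted p = 2.58e-11).

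Exon 2a ran the other way. Its PSI was 0.00920 and 0.00936 in heart, 0.0621 and 0.0564 in cortex, 0.138 and 0.157 in lung, 0.302 and 0.368 in kidney and 0.541 and 0.430 in spleen (adjusted p = 1.95e-10). Each exon of the pair is a flank of the other in these events, so the junction between them, which mutually exclusive use does not make, is part of the length that divides the inclusion reads, and PSI lies below the share of the exon within the pair. By the junction that each form alone makes, 2b took 99.6% of pair reads in both heart libraries, 89.2% and 91.3% in cortex, 76.5% and 74.5% in lung, 52.2% and 50.9% in kidney and 31.0% and 42.9% in spleen. The order of these 5 tissues was the same on both measures. Lung and spleen, where more 2a was used than in heart or cortex, were the tissues with the highest summed smooth muscle markers, whereas kidney, with more 2a than lung, had 194 to 257 TPM of them. Lung also held 593 to 804 TPM of the cardiomyocyte markers, and the part of either cell type in the Tpm1 values was not tested.

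The second pair of Tpm1, 2 exons of 76 bp known as 6a (chr9:67032466-67032541) and 6b (chr9:67031951-67032026), also separated the tissues. The later exon, 6b, took 99.8% of the pair reads in both heart libraries, 97.3% and 97.0% in cortex, 88.0% and 87.5% in lung and 75.7% and 73.8% in spleen. Kidney (41.3% and 46.6%) and liver (24.7% and 30.3%) used mostly 6a, and the ESC clones had 75.4% and 62.3% of 6b. The ranges of heart, cortex, lung, kidney and liver did not overlap. Kidney and liver thus stood at the end of this pair, whereas spleen stood at the end of the 2a and 2b pair. These shares are descriptions, since the pairs were picked after their values were seen.

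A 79-bp exon toward the 3′ end of Tpm1 (chr9:67029664-67029742) separated cortex from heart most clearly. Its PSI was 0.997 in both heart libraries, from 428899 and 434978 reads, and 0.418 and 0.344 in cortex. Lung (0.986 and 0.987) and ESC (0.949 and 0.990) were near heart. Spleen (0.754 and 0.778) and kidney (0.742 and 0.622) lay between, and liver was spread from 0.259 to 0.724 on 34 and 25 reads. The difference between heart and cortex was 0.616 (adjusted p = 3.46e-09), and no tissue but liver overlapped cortex.

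**Figure D2:**
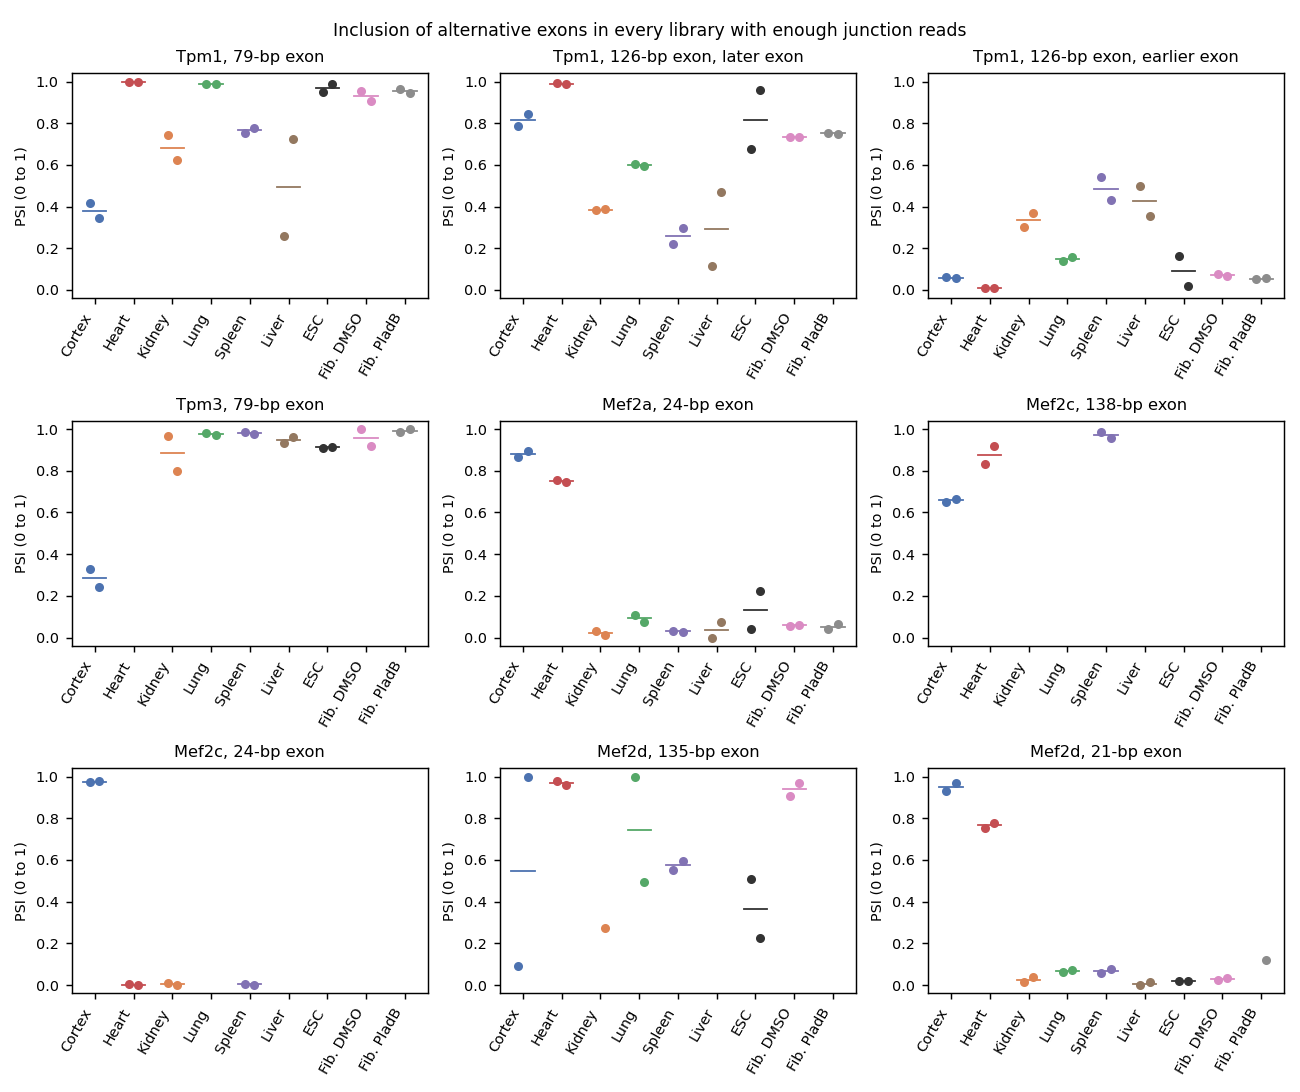
PSI of the 9 exons with a called tissue effect of 0.3 or more, with 1 point per library of 20 or more junction reads and a bar at the mean where both libraries had them. Cortex and heart stand high for the 24-bp exon of Mef2a (0.866 and 0.893, 0.758 and 0.745) and the 21-bp exon of Mef2d, and cortex alone for the 24-bp exon of Mef2c.

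Tpm3 had a called exon of the same length, 79 bp (chr3:90091013-90091091), which differed in cortex. With the downstream exon that starts at 90098375 as the flank, its PSI was 0.328 and 0.242 in cortex, and in the other tissues with enough reads from 0.800 (a kidney library of 36 reads) to 0.987 (spleen). Lung was at 0.984 and 0.973 and ESC at 0.912 and 0.913, and heart had too few reads on this event. The largest difference, between spleen and cortex, was 0.698 (adjusted p = 1.54e-07). The value depends on the flank: with the exon that starts at 90099528 the same exon had a PSI of 0.0106 to 0.112 in all 14 tissue libraries, since most transcripts joined that exon directly. Tpm3 also holds a pair of 76-bp exons, of which the earlier (chr3:90088401-90088476) took 79.3% and 76.2% of pair reads in lung, below the 95.8% to 99.6% of kidney, spleen and ESC. On the far fewer reads assigned to 1 allele, its share was lower, at 61.1% to 72.7% in lung and 84.6% to 89.8% in spleen.

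Tpm2 had 1 listed exon, in fibroblasts, with PSI from 0.9995 to 1, and the 4 exons of Tpm4 were between 0.979 and 1 from all reads. On reads of 1 allele the 63-bp exon of Tpm4 was as low as 0.931, in a liver library on SPRET/EiJ with 102 reads, and the 70-bp exon was at 0.968 on C57BL/6J and 0.974 on SPRET/EiJ in a library after pladienolide B. The 7 remaining exons of Tpm1 and 8 of Tpm3 were over 0.9 from all reads in each library with enough reads, each scored in its event with the most reads. Among them are the 76-bp exons, for which this PSI is against transcripts with neither exon of the pair, so that the choice within the pair is seen only in the shares above.

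**Figure D3:**
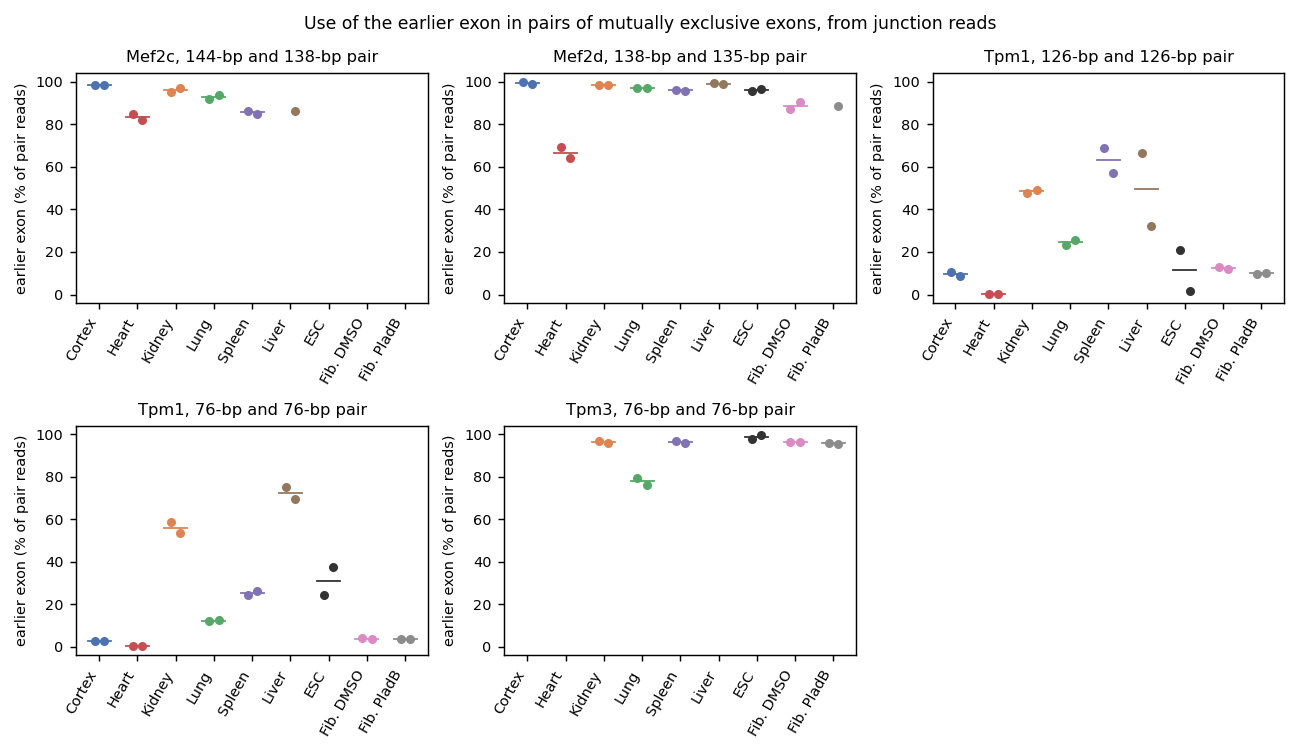
Share of the earlier exon, in percent of the junction reads of a pair of mutually exclusive exons, with 1 point per library and a bar at the mean of 2 libraries. The pairs of 2 exons of 126 bp and 76 bp are those of Tpm1 and Tpm3, and those of 144 and 138 bp and of 138 and 135 bp are those of Mef2c and Mef2d. Heart lies near 0 for both Tpm1 pairs and lowest, at 69.3% and 64.0%, for the Mef2d pair.

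The β exons of the Mef2 genes gave the largest differences. In Mef2d the 21-bp exon (chr3:88161781-88161801) had a PSI of 0.930 and 0.968 in cortex and 0.754 and 0.780 in heart. It was 0.0626 and 0.0720 in lung, 0.0559 and 0.0777 in spleen, 0.0153 and 0.0371 in kidney, 0.0190 and 0.0215 in ESC and 0 and 0.0130 in liver. Cortex and heart stood apart from the other 5 tissues and from each other (heart minus cortex −0.182, adjusted p = 6.99e-06). The whole tissue effect was 0.943 (adjusted p = 4.02e-11).

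The 24-bp β exon of Mef2a (chr7:67244521-67244544) followed the same order at its top. Its PSI was 0.866 and 0.893 in cortex and 0.758 and 0.745 in heart. In the other tissues it was 0.107 and 0.0756 in lung, 0.0331 and 0.0122 in kidney, 0.0310 and 0.0283 in spleen, 0 and 0.0736 in liver and 0.0431 and 0.222 in the ESC clones. Heart was below cortex by −0.128 (adjusted p = 0.00309), and both were above the ranges of the rest (tissue effect 0.856, adjusted p = 1.27e-09).

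In Mef2c the 24-bp β exon (chr13:83654598-83654621) split cortex from heart. Its PSI was 0.973 and 0.980 in cortex, from 2365 and 2986 reads. It was 0.00293 and 0.00157 in heart, 0.00715 and 0.00178 in spleen and 0.00892 and 0 in kidney. Cortex exceeded heart by 0.974 (adjusted p = 3.86e-10). The β exons of Mef2a and Mef2d were thus included in both cortex and heart, and that of Mef2c in cortex among the 4 tissues with enough reads. Neuronal markers summed to 2076 to 2280 TPM in cortex and to 37.2 to 49.8 TPM in heart, where 3 of the 4 were under 1 TPM.

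By the shares of pair reads, the mutually exclusive α exons set heart apart in Mef2d, and heart and spleen below cortex, kidney and lung in Mef2c. In Mef2d, the first of the pair (138 bp, chr3:88158034-88158171, α1) took 69.3% and 64.0% of the pair reads in heart, and 95.6% to 99.7% in the other 6 tissues. The 135-bp exon (chr3:88158221-88158355, α2), the form known from muscle, accordingly took 30.7% and 36.0% in heart. In Mef2c, the first exon (144 bp, chr13:83625265-83625408) took 84.96% and 82.1% in heart and 86.5% and 84.97% in spleen, against 98.3% and 98.5% in cortex. Kidney (95.4% and 96.9%) and lung (92.1% and 93.9%) lay between, and the liver library with enough reads was at 86.4%. Heart and spleen did overlap for Mef2c, and cortex stood above all of these. In Mef2a, a pair of 138 bp (chr7:67268067-67268204) and 132 bp (chr7:67268269-67268400) was listed in heart alone, with 57.4% and 59.0% on the 138-bp exon.

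The α2 exons were also scored against transcripts that hold neither exon of the pair. On this measure the 135-bp exon of Mef2d had a PSI of 0.979 and 0.959 in heart and 0.554 and 0.597 in spleen, on over 100 reads in each. It was 0.508 and 0.227 in ESC, 1 and 0.492 in lung, and 0.0933 and 1 in cortex on 41 and 20 reads, so that only heart and spleen were measured closely (tissue effect 0.602, adjusted p = 0.00301). Without the lower cortex library the difference between heart and cortex turned sign, to −0.0313. The 138-bp exon of Mef2c (chr13:83625470-83625607) had a PSI of 0.652 and 0.667 in cortex, 0.831 and 0.918 in heart and 0.986 and 0.960 in spleen, with no overlap (tissue effect 0.313, adjusted p = 0.0151). It was not called without either cortex library or the higher spleen library (adjusted p = 0.0877, 0.0827 and 0.0624). A 307-bp exon of Mef2d (chr3:88168038-88168344) was called through the ESC clones, at 0.896 and 0.556 against 0.914 or more elsewhere (adjusted p = 0.0256), and was not called without ESC, where the largest difference was 0.0825, or without either heart library (adjusted p = 0.0564 and 0.0710). Of the exons without a call, 7 of 8 in Mef2a, all 3 in Mef2c and 6 of 7 in Mef2d had a PSI over 0.9 from all reads in each library with enough reads.

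In all, 30 of 99 member tests of heart against another tissue were called, 23 of them with more inclusion in heart. They were 6 of 18 against cortex, 5 of 17 against ESC, 5 of 15 against kidney, 5 of 12 against liver, 4 of 18 against lung and 5 of 19 against spleen. Over all events the corresponding shares were 10.5%, 8.4%, 7.62%, 8.9%, 6.46% and 8.15%, and those with more inclusion in heart 4.76%, 4.63%, 4.02%, 4.19%, 3.65% and 4.73%. For cortex, 31 of 102 tests were called, 18 with more inclusion in cortex. They were 5 of 17 against ESC, 6 of 18 against heart, 6 of 16 against kidney, 3 of 13 against liver, 4 of 19 against lung and 7 of 19 against spleen, where 9.37%, 10.5%, 10%, 11.6%, 9.99% and 11% of all events were called, and 5.35%, 5.73%, 5.39%, 5.72%, 5.53% and 6.31% with more inclusion in cortex. Comparisons with cortex and with heart share libraries, so that the pair of heart and cortex is counted in both.

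Reads that carry a difference between C57BL/6J and SPRET/EiJ were assigned to an allele, which puts both alleles in the same cells. In the tissues, 3 of 114 member tests were called between alleles. They were 1 of 24 in heart, beside 3.83% of all events, and 2 of 19 in spleen, beside 2.92%, and none by the quasi-binomial test in cortex, kidney, lung, liver and ESC, where 1.96%, 2.28%, 2.98%, 2.38% and 1.54% of all events were called. At an unadjusted p under 0.05 there was 1 member test in each of cortex, ESC, kidney and lung and 0 in liver, and limma on log2 ratios of the reads called none in the 7 tissues.

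By PSI, exon 2b of Tpm1 was included more on the C57BL/6J allele in every group measured, though not by single junctions in lung. In spleen its allelic PSI was 0.293 and 0.409 on C57BL/6J and 0.147 and 0.175 on SPRET/EiJ, a difference of 0.190 (adjusted p = 0.00275, and 0.000972 with the library as a block). Without the second spleen library the difference was 0.146 and was not called (adjusted p = 0.0779). In kidney it was 0.478 and 0.495 against 0.264 and 0.256, a difference of 0.226 with no overlap (adjusted p = 0.0634, called with the library block at 0.00607). Cortex had 0.864 and 0.873 against 0.753 and 0.780, and lung 0.628 and 0.614 against 0.577 and 0.575, without a call. In heart, where the exon is nearly always included, it was 0.997 in both libraries against 0.983 and 0.984.

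The ESC clones had 0.747 and 0.974 on C57BL/6J against 0.527 and 0.923 on SPRET/EiJ, called with the library block (adjusted p = 0.0163) and not without it (0.180). Within each clone the C57BL/6J allele was higher, while the difference between the clones was larger than that between the alleles. Exon 2a differed in the opposite direction in spleen, at 0.443 and 0.353 on C57BL/6J and 0.628 and 0.555 on SPRET/EiJ (−0.194, adjusted p = 0.0460, and 0.0105 with the library block). It was not called without either spleen library (−0.202 and −0.185) or without a library of cortex, heart, kidney or lung. The share of exon 6b within its pair was not tested between alleles. In the ESC clones it was 62.9% and 44.4% on C57BL/6J and 88.7% and 64.0% on SPRET/EiJ. In spleen the C57BL/6J allele had more, at 64.3% and 67.9% against 38.2% and 61.5%. In lung and fibroblasts the alleles differed by at most 1.20 percentage points.

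In DMSO-treated fibroblasts, exon 2b was at 0.816 and 0.815 on C57BL/6J and 0.621 on SPRET/EiJ in both libraries, a difference of 0.194 from 11516 or more reads per allele and library (adjusted p = 2.00e-10). After pladienolide B it was 0.823 and 0.826 against 0.655 and 0.653, a difference of 0.170 (adjusted p = 3.01e-10). With the library as a block, which leaves few degrees of freedom, the adjusted p was 0.0623 and 0.0937. The replicates of an allele lay within 0.01 of each other in both conditions. These were 2 of the 3 allelic calls in fibroblasts, of 21 tests in DMSO (2.56% of all events called) and 35 after pladienolide B (2.54%). The third was a 73-bp exon of Mef2a after pladienolide B, at 0.939 and 0.923 on C57BL/6J and 0.862 and 0.697 on SPRET/EiJ (adjusted p = 0.0487, and 0.50 with the library block), which was not called whichever library was left out (differences from 0.0766 to 0.225).

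The coverage of the Tpm1 junctions was uneven between the alleles. The ratio of inclusion reads of 2b to reads that join the first exon to 2b was 0.840 and 0.848 on C57BL/6J in heart, and 0.637 and 0.642 on SPRET/EiJ. In DMSO fibroblasts it was 0.736 and 0.681 against 0.698 and 0.652. The alleles lay further apart in kidney (1.153 and 1.189 against 0.676 and 0.691) and in spleen (1.098 and 1.043 against 0.779 and 0.764). Among the tissues, kidney and spleen also had the largest mean allelic PSI differences of 2b. Only in liver was the ratio lower on C57BL/6J, from 19 or fewer reads of either kind. By the single junctions of each form, C57BL/6J used more 2b in fibroblasts (91.7% and 92.2% against 81.2% and 82.2% in DMSO, 93.3% in both libraries against 86.3% and 85.3% after pladienolide B), in kidney (61.4% and 62.2% against 51.5% and 49.8%), in spleen (43.0% and 57.04% against 30.7% and 35.7%) and in cortex (93.8% and 93.6% against 89.8% and 90.2%). In lung it used less (79.0% and 77.5% against 82.7% and 79.1%). The allelic difference of lung thus changes direction with the junctions used, and the part of read assignment in the others was not tested.

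The β exon of Mef2a was the call in heart. Its PSI was 0.798 and 0.812 on C57BL/6J and 0.713 and 0.650 on SPRET/EiJ, a difference of 0.123 (adjusted p = 0.0162, and 0.0273 with the library block). The call was lost without either heart library (differences of 0.161 and 0.0853, adjusted p = 0.0516 and 0.410). The β exons of Mef2c and Mef2d were not called between alleles in any tissue. For Mef2c in cortex they were at 0.971 and 0.984 on C57BL/6J and 0.974 on SPRET/EiJ in both libraries. The 79-bp exon of Tpm3 in cortex had 0.714 and 0.838 on C57BL/6J and 0.442 and 0.350 on SPRET/EiJ, a difference of 0.380 that was not called (adjusted p = 0.104). Its values from assigned reads lay above those from all reads (0.328 and 0.242). Their means differed by more than the 0.1 allowed for an allelic call, so no p-value could have given a call.

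**Figure D4:**
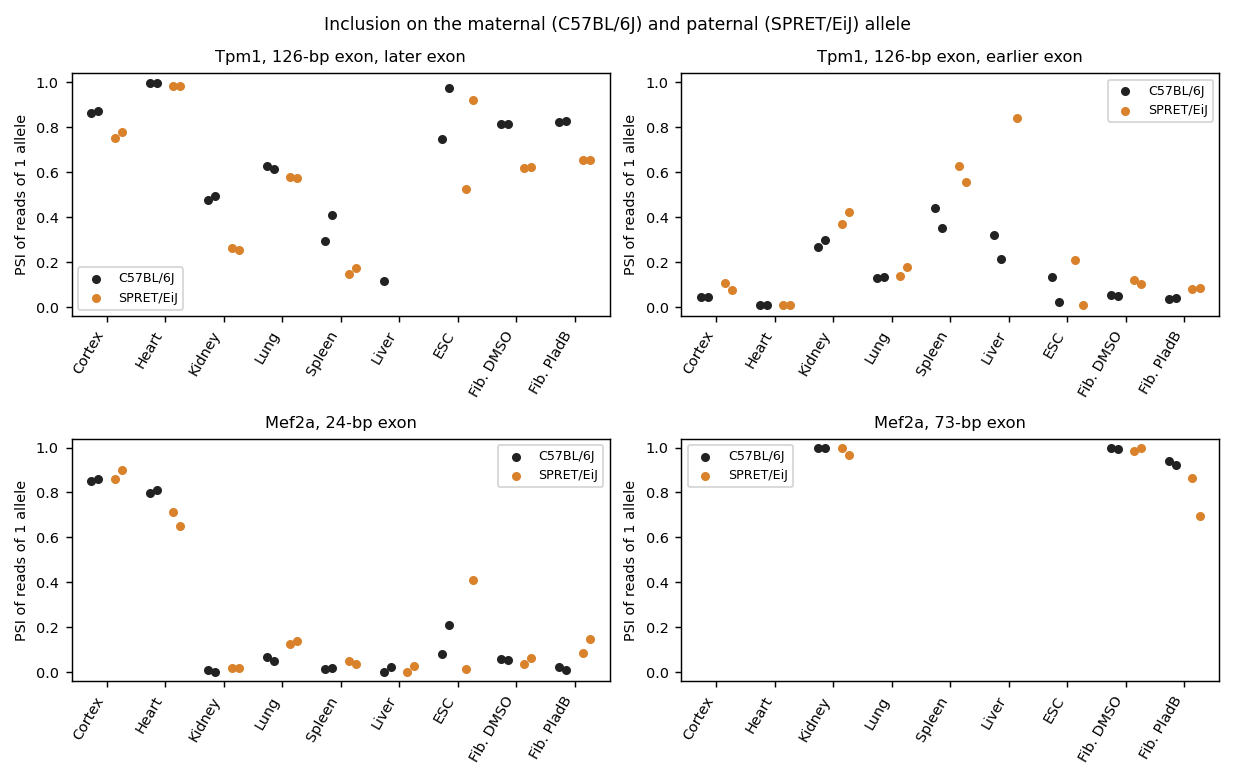
PSI from reads of the C57BL/6J allele (dark) and the SPRET/EiJ allele (orange) for the 4 exons called between alleles, with 1 point per library and allele. For the later 126-bp exon of Tpm1 the dark points lie above the orange ones within each library of every group shown, with 0.816 and 0.815 against 0.621 in DMSO fibroblasts.

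Pladienolide B was compared with DMSO in the fibroblasts, where the tropomyosins are abundant. Tpm4 measured 1714 and 1766 TPM after DMSO and 2508 and 2372 TPM after pladienolide B. Tpm1 went from 832 and 849 TPM to 1021 and 1001 TPM, and Tpm2 from 250 and 257 TPM to 385 and 364 TPM. Tpm3 went from 145 TPM in both DMSO libraries to 134 and 132 TPM. The tropomyosin levels of treated and control cultures did not overlap for any of the 4 genes.

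Mef2d and Mef2a had lower TPM after treatment. Mef2d went from 25.0 and 24.2 TPM to 2.29 and 2.62 TPM, and Mef2a from 39.4 and 38.5 TPM to 13.0 and 13.6 TPM. Mef2c was at or below 0.123 TPM in the 4 libraries and was not tested. The 6 genes tested all passed, as did 89% of 13577 genes, 15.6% with a higher and 73.4% with a lower level after treatment. On the log2 scale Tpm1 rose by 0.27 (SE 0.03, limma adjusted p = 0.000785), Tpm2 by 0.56 (SE 0.04, limma adjusted p = 1.20e-04) and Tpm4 by 0.49 (SE 0.04, limma adjusted p = 2.03e-04).

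The median difference over all genes was −1.15 on the log2 scale, and TPM values are shares of a total. Centring each library on its median level added 1.45 to every difference. On the centred scale Tpm1 was higher by 1.72, Tpm2 by 2.01 and Tpm4 by 1.94. Tpm3, at −0.13 as deposited (limma adjusted p = 0.0185), was at 1.32 when centred (limma adjusted p = 9.50e-06), so that its direction depends on the scaling, and as deposited it did not pass without either DMSO library (limma adjusted p = 0.107 and 0.114). Mef2d fell on both scales (−3.27 and −1.83). Mef2a fell as deposited (−1.54, limma adjusted p = 7.12e-06), while centred it was at −0.10 and did not pass (limma adjusted p = 0.124). The smooth muscle markers Acta2, Cnn1, Tagln and Myh11 summed to 5331 to 5416 TPM after DMSO and 7890 to 8236 TPM after pladienolide B, with Myh11 at or under 0.151 TPM in each library, and their part in the tropomyosin levels was not tested.

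**Figure D5:**
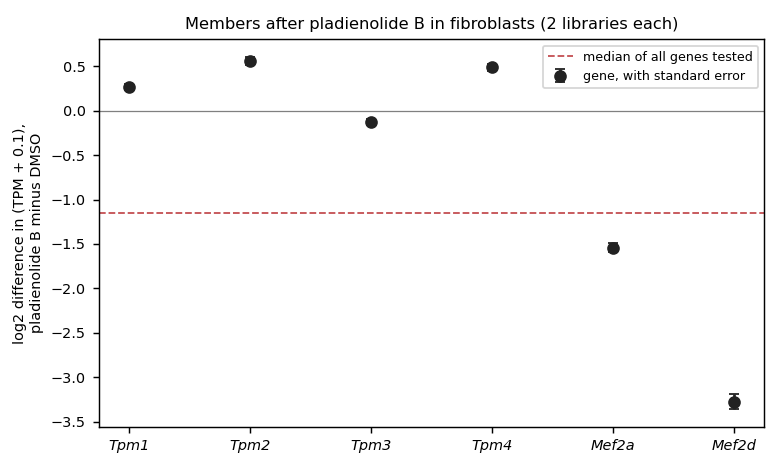
Log2 difference in TPM + 0.1 between pladienolide B and DMSO for the 6 members tested, with standard errors from 2 libraries in each group, and the median of all genes tested at −1.15 (dashed). Tpm1, Tpm2 and Tpm4 lie above 0, Tpm3 at −0.13, and Mef2a and Mef2d below the median at −1.54 and −3.27.

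Of the 46 SE events of the members tested in fibroblasts, 2 were called, both in Mef2a and both with less inclusion after treatment, beside 7.23% of 54535 events, of which nearly all had less inclusion (7.12%). A 127-bp exon (chr7:67236524-67236650) went from a PSI of 1 in both DMSO libraries (1231 and 1277 reads) to 0.834 and 0.870 (175 and 240 reads), a difference of −0.148 (adjusted p = 0.00361). The 73-bp exon (chr7:67349849-67349921) went from 0.994 and 0.997 to 0.909 and 0.815, a difference of −0.133 (adjusted p = 0.0168). Both exons left the range of the controls, and neither was called once any of the 4 libraries was left out, with differences from −0.130 to −0.166 for the 127-bp exon and from −0.0862 to −0.180 for the 73-bp exon.

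The tropomyosin exons changed little beside this. Exon 2b of Tpm1 was at 0.734 and 0.735 after DMSO and 0.752 and 0.751 after pladienolide B, a difference of 0.017 that is under the limit of 0.1 (adjusted p = 0.0498). The 79-bp exon of Tpm1 was at 0.955 and 0.908 against 0.965 and 0.944, and 6b took 96.0% and 96.4% against 96.2% and 96.4% of its pair. The allelic difference of an exon was tested between treatments in 17 member events, none of which was called by the quasi-binomial test or by limma on log2 ratios, as for 0% of 13585 events. A single one, the β exon of Mef2a, had an unadjusted p under 0.05 (0.0134, adjusted p = 0.880).

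The table of retained introns lists 1 intron of a member, in Tpm2 (chr4:43518465-43519002). Its retained share was 0.0178 in both DMSO libraries and 0.00248 and 0.00269 after pladienolide B, a difference of −0.0152 (adjusted p = 4.11e-05) that is under the limit of 0.1. Over all introns tested, 38% were called.

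Among 27 genes of thin filament and tropomyosin partners, 16 were higher and 4 lower in heart than in cortex (median log2 difference 2.43). Over all genes 14.1% were higher and 44.6% lower, with a median of −0.81. Against lung, 12 of the partners were higher and 12 lower in heart (median 0.21), and against spleen 12 and 8 (median 0.22). Against kidney, liver and ESC, 16, 21 and 15 were higher and 2, 2 and 6 lower. Of all genes, 10.2%, 14.9%, 11.1%, 38.7% and 19.9% were higher in heart than in lung, spleen, kidney, liver and ESC. Tnnt2, the cardiac troponin T that binds tropomyosin, measured 17772 and 17701 TPM in heart and 8.27 and 7.88 TPM in cortex, and Lmod2, a leiomodin that nucleates actin in heart, 530 and 566 TPM against 0.311 and 0.244 TPM. Tmod2, the neuronal tropomodulin that caps the pointed end, was lower in heart by −6.78 on the log2 scale. After pladienolide B, where 15.6% of all genes were higher and 73.4% lower, 4 of the 15 tested were higher and 10 lower. Their median was −0.28, beside −1.15 over all genes. Acta2, the smooth muscle actin, was among the higher (0.45), with Cnn1, Cnn2 and Actg2.

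Among 15 partners and regulators of MEF2, 6 were higher and 3 lower in heart than in cortex (median 0.09). Of all genes, 14.1% were higher and 44.6% lower in heart than in cortex, with a median of −0.81. Against liver, 14 of the partners were higher in heart (median 3.45), where 38.7% of all genes were higher with a median of 0.67. Against lung 6 were higher and 2 lower in heart (median −0.34), and against spleen 7 and 5 (median −0.63). There the medians over all genes were −0.70 and −0.65, and 10.2% and 14.9% of genes were higher in heart. Against kidney 7 were higher and 0 lower, and against ESC 9 and 3, where 11.1% and 19.9% of all genes were higher. The cardiac transcription factor Nkx2-5 and the MEF2-regulated methyltransferase Smyd1 were among the higher, with Smyd1 at 226 and 240 TPM in heart and 1.45 and 1.16 TPM in cortex. Of the 8 tested after pladienolide B, 7 were lower and 1 higher (median −2.40), where 73.4% of all genes were lower, 15.6% higher and the median of all genes was −1.15. The class IIa histone deacetylases Hdac4 (−3.92), Hdac5 (−1.85), Hdac7 (−2.99) and Hdac9 (−2.95), which repress MEF2, were among the lower. Mapk7, the kinase ERK5 that acts on MEF2, was the higher gene (0.86).

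Among 15 splicing regulators taken as candidates for tropomyosin and Mef2 exons, 3 were higher and 8 lower in heart than in cortex (median −1.07). Over all genes 14.1% were higher and 44.6% lower in heart than in cortex, with a median of −0.81. Rbm20, the cardiac splicing regulator, measured 159 and 139 TPM in heart and 4.05 and 3.91 TPM in cortex, and Rbm24 145 and 143 TPM against 16.02 and 16.15 TPM. Rbfox1, known from neurons and muscle, measured 244 and 245 TPM in cortex and 27.7 and 27.9 TPM in heart, and at most 1.32 TPM in the other tissues and 0.0111 TPM in fibroblasts. Cortex and heart had the most Rbfox1 and included the β exons of Mef2a and Mef2d, whereas the β exon of Mef2c was skipped in heart (0.00293 and 0.00157). The related Rbfox2 measured 129 and 137 TPM in cortex, 58.8 and 56.3 TPM in heart and 71.7 and 54.6 TPM in ESC, where the β exon of Mef2d was at 0.0190 and 0.0215. Ptbp1, the polypyrimidine tract-binding protein, was lowest in cortex (25.0 and 22.4 TPM) and heart (31.4 and 32.2 TPM), and reached 324 and 372 TPM in ESC. After pladienolide B all 9 regulators tested were lower (median −1.74), where 73.4% of all genes were lower and the median of all genes was −1.15. Whether any regulator bears on an exon was not tested.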

How the data were processed

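RNA-seq of 18 libraries was used. Reads were aligned by the authors with HISAT2 2.0.1 to mm10 and to a SPRET/EiJ genome derived from it, each read was given to the closer genome, and SPRET/EiJ coordinates were converted to mm10. The authors counted junction reads with rMATS and deposited raw counts, not normalized, with both replicates in each cell; replicate numbers are positions in these lists. Effective lengths are deposited as a score of rMATS that depends on exon and read length; reads were longer in fibroblasts. Deposited expression is in TPM, made by the authors from all reads. The deposited p-values, FDR and inclusion differences of rMATS are comparisons of the authors and were not used. Number of columns left out as unmatched: 0.

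Which allele is which was checked on imprinted genes: Meg3, expressed from the mother, had 194226 reads on C57BL/6J and 1952 on SPRET/EiJ in the organs. PSI was recomputed from counts and lengths with 20 or more reads. Inclusion against skipping reads of all autosomal events were fitted with a quasi-binomial model without a block, with dispersions moderated by limma 3.58.1 (R 4.3.3) toward a prior that follows depth and set to at least 1, an F test and Benjamini-Hochberg adjustment over all events. An allelic call in tissues also needed a PSI within 0.1 of that from all reads. Log2(TPM + 0.1) was tested with limma for genes of 1 TPM or more in at least 2 libraries; differences on this scale understate those of low genes. Symbols with 2 rows (Hdac4, Qk) used the row with the higher mean. Both models were tested on simulated data. The software was Python 3.11.15 with pandas 2.3.3, and R.

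The alleles of a library are paired by construction, and their replicate deviations had r of 0.0315 to 0.607. Whether a replicate number marks the same animal across organs is not given in the sources used here. Members, gene lists, tests and the depth-trended prior were chosen with earlier results of these data known. An exon is described where its tissue effect is called with a difference of 0.3 or more. It is also described where it is called between alleles or after treatment. Each is described by its event with the most reads, apart from the 79-bp exon of Tpm3, which is described by its called event. The rest are given by ranges, apart from the 307-bp exon of Mef2d, the pairs of exons and the junction ratio. These exceptions to the ranges were picked after their values were seen. The genes closest to a member were the 2 with the highest r. Marker lists were those of cardiomyocytes, smooth muscle, neurons and other cell types of the sampled tissues. Alternatives are given in the closing section. For the fibroblasts, p-values measure the spread between cultures of 1 line. Where a group was cut to 1 library, it was assumed to vary like the others. Sequences are not used here.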

Additional observations from a re-analysis of the deposited data

Results flagged for a closer look

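The allelic difference of the 24-bp exon of Mef2a took opposite signs in heart and in 5 of the 8 other groups, in both libraries of each. In heart the C57BL/6J allele had the higher PSI, by 0.123 on average. The mean difference, C57BL/6J minus SPRET/EiJ, was −0.0251 in cortex, −0.0152 in kidney, −0.0719 in lung, −0.0280 in spleen and −0.100 in fibroblasts after pladienolide B. The remaining groups had no such sign in both libraries, with 0.0690 and −0.202 in the ESC clones, 0.0232 and −0.00838 in DMSO fibroblasts and 0 and −0.00185 in liver. None of the 5 opposite differences was called on its own (adjusted p from 0.153 to 0.677), and the difference between heart and any of these groups was not tested.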

How the results depend on the processing

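Counts of called members stayed within 1.5 times the reported count in 164 repeats and moved further in 12. Single exons and genes kept direction and side of the threshold in 432 repeats, lost the call in 56 and turned in 1, counted over tissue effects, allelic differences and differences after treatment. Of the differences between pairs of tissues, not counted there, heart minus cortex turned for Mef2a (−0.63 to 0.70) and Mef2d (−0.24 to 1.09) on centring, and for the 135-bp exon of Mef2d (to −0.0313) without the lower cortex library. The calls between alleles in tissues were 5 with a replicate block (the library), 0 with limma on log2 ratios and 1 with each tissue fitted alone, in place of 3, and 1 to 4 without single libraries, with 1 without either heart library. Those between alleles in fibroblasts were 0 with the replicate block and 0 with limma on log2 ratios, in place of 3, and 2 whichever library was left out. The 2 SE calls after pladienolide B were 0 with a replicate block and 0 whichever library was left out. With limma on log2 ratios there were 3. The count stayed at 2 with 50 junction reads, without the depth trend of the prior and without events near 0 or 1. Without single libraries the tissue effect was called for 9 to 10 events, heart pairs for 27 to 30 and cortex pairs for 30 to 32, and expression for 7 genes in tissues, 29 to 32 heart pairs, 30 to 35 cortex pairs and 5 to 6 genes after pladienolide B. The difference of Tpm3 after pladienolide B turned to 1.32 when centred on the median gene. Same-numbered libraries did not deviate together between tissues (r from −0.0696 to 0.0621) or treatments (0.00109). With the replicate number as a block, tissue calls were 7 of 30, without the 138-bp exon of Mef2c (adjusted p = 0.0751) and the 135-bp and 307-bp exons of Mef2d (0.0656 and 0.0888), and limma on log2 ratios also called 7, with 20 heart pairs and 23 cortex pairs. Repeats without both ESC clones, expression centred in tissues and those on the retained intron were added after the data were seen, and changed no count of calls in both directions together by over 1.5 times. On centring, cortex calls with higher expression went from 19 to 11 and those with lower from 13 to 16. Events near 20 reads, as in liver and for the 135-bp exon of Mef2d, are limited by depth.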
